A study of Mus musculus with 6 samples.

Results

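The genes described here encode the enzymes that make prostaglandins, thromboxane and leukotrienes. They are 10 genes listed by symbol for their role in the pathway: Pla2g4a, Ptgs1, Ptgs2, Ptges, Ptges2, Ptges3, Tbxas1, Alox5, Alox5ap and Ltc4s. Each symbol matched 1 row of the authors' deposited table, which lists 23235 genes. RNA sequencing compared 2 groups of 3 samples of primary macrophages grown from mouse bone marrow, all homozygous for GRdim, a mutant glucocorticoid receptor with impaired dimerization that both groups carry. The LPS group received lipopolysaccharide, a trigger of innate immunity from the envelope of Gram-negative bacteria, for 6 h. The LPS+Dex group was in addition given the synthetic glucocorticoid dexamethasone at 1 µM overnight, before the LPS. The cells had been differentiated in medium conditioned by L-929 cells and were treated in serum-free medium. Neither wild-type nor unstimulated cells were analysed here, so the values compare mutant cells under LPS with and without the hormone and do not show what the mutation changes.

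Eicosanoids are lipid mediators made from arachidonic acid. Cytosolic phospholipase A2 releases the fatty acid from membranes, the cyclooxygenases convert it to prostaglandin H2, and terminal synthases turn that into prostaglandin E2, thromboxane A2 and other prostanoids. In the other branch, 5-lipoxygenase works with its activating protein to make leukotriene A4, from which leukotriene C4 synthase makes the first of the cysteinyl leukotrienes. Macrophages given LPS are a classical source of prostaglandin E2, and glucocorticoids are known to restrain eicosanoid production.

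The expression levels are FPKM (fragment counts scaled to transcript length and to the size of the library), 1 value per gene and group as deposited, so values of single samples cannot be shown and no test over samples could be run. No q-value was recomputed for the main results, and a gene was called higher or lower in LPS+Dex when its q was under 0.05. The standard error (SE) given with a log2 fold change is the one implied by the deposited test statistic, and intervals are 95% intervals built from it. Whether each group's 3 samples stem from different mice or dishes is not labelled, so the deposited error may reflect technical spread. Sequencing depth is unknown. The receptor's point mutation cannot be checked from a value per gene.

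In the authors' deposited table, the first enzyme of the pathway and the dominant prostaglandin E synthase moved in opposite directions. Pla2g4a fell by 40.7% with dexamethasone and Ptges rose by 46.9%. Of the 9 genes with a test, 3 were higher (Ptges, Ptges2 and Alox5ap), 3 were lower (Pla2g4a, Alox5 and Ptges3) and 3 did not pass (Ptgs1, Tbxas1 and Ltc4s). The tenth, Ptgs2, had no test. Calls were common in this comparison: 42.9% of all tested genes passed, 17.7% as higher and 25.2% as lower. The median log2 fold change of the 9 genes was 0.014, beside −0.011 over all tested genes. At a change of at least 1.5-fold 2 of the 9 were called, both lower (Pla2g4a and Alox5), beside 10.5% of all tested genes in either direction.

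**Figure D1:**
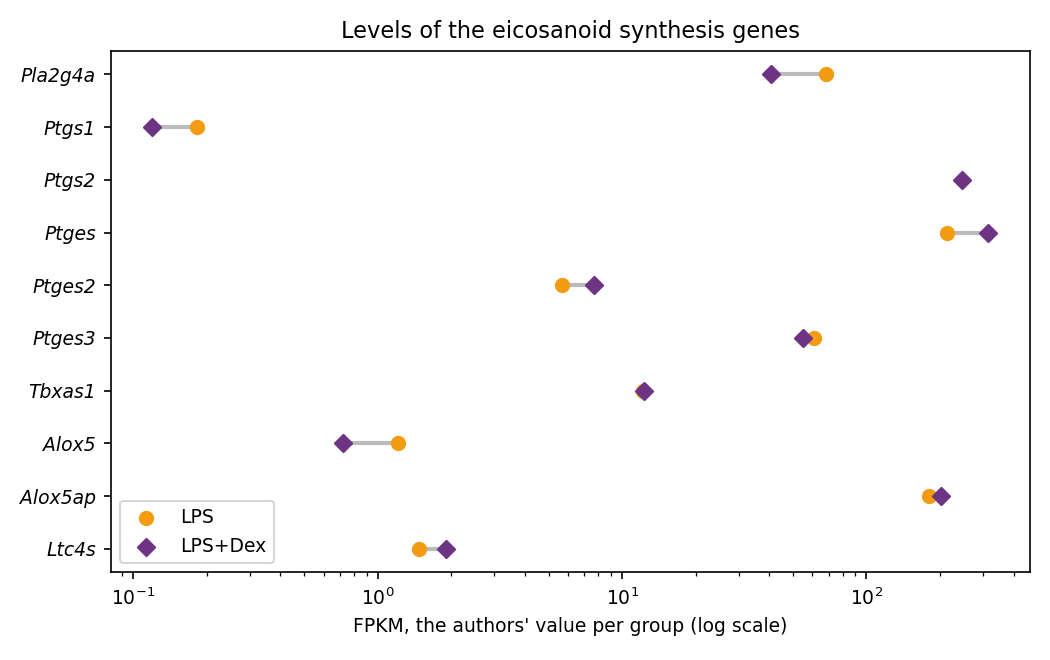
Deposited FPKM of each gene in the LPS group (circles) and the LPS+Dex group (diamonds), 1 value per group on a log axis; grey lines join the values of genes with a test. Ptgs2 has no circle because its LPS value is not a measurement, and the LPS values of the others run from 0.181 FPKM for Ptgs1 to 214 FPKM for Ptges.

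Levels per length spanned a wide range in both groups. With LPS alone the order, from the highest, was Ptges at 214 FPKM, Alox5ap at 179.6, Pla2g4a at 68.4, Ptges3 at 60.9, Tbxas1 at 12.2, Ptges2 at 5.69, Ltc4s at 1.48, Alox5 at 1.21 and Ptgs1 at 0.181 FPKM. In LPS+Dex the order was the same except that Ptges3, at 55.1 FPKM, stood above Pla2g4a, at 40.6. Whether neighbours in this order differ beyond the spread of samples cannot be said from 1 value per group. Against all tested genes, Ptges lay at percentile 97.5 and Alox5ap at percentile 96.5 of the mean level, whereas Alox5 lay at percentile 20.1 and Ptgs1 at percentile 3.96.

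Pla2g4a encodes cytosolic phospholipase A2, which supplies arachidonic acid to both branches. Its level was 68.4 FPKM with LPS and 40.6 FPKM with LPS and dexamethasone in the authors' deposited table. That fall was −0.75 on the log2 scale (SE 0.047, interval −0.85 to −0.66), with the q listed as 0. Of all tested genes, 91.7% had a smaller log2 change in either direction. With its SE of 0.047, against a median of 0.071 over tested genes, Pla2g4a had the smallest error of the 9 genes.

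The cyclooxygenase genes gave little that could be compared. Ptgs1, the constitutive cyclooxygenase gene, was scarce, at 0.181 and 0.120 FPKM, and did not pass (log2 −0.60, SE 0.33, q = 0.143). Its interval, −1.26 to 0.056, reached from a fall larger than that of Pla2g4a to no change. Ptgs2, which encodes the inducible cyclooxygenase, has a listed 0 for the LPS group and 246 FPKM for LPS+Dex in the authors' deposited table. Its row carries the status HIDATA and no test, and a 0 in such rows is not a measurement. These values therefore cannot show whether its level rose, fell or stayed the same. All 30 rows with that status held a 0 in at least 1 group; 19 were at 0 in both groups, 9 in LPS alone and 2 in LPS+Dex alone. The value of 246 FPKM in LPS+Dex was below the 314 FPKM of Ptges and above the 201 FPKM of Alox5ap.

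Around Ptgs2 the authors' deposited table does give measurements. In its coordinates, of build mm9 per the submitters' processing notes, Ptgs2 spans chromosome 1, 151947253 to 151955142, and Pla2g4a lies 138839 bases before it on the same chromosome, at 151676751 to 151808414. Between them, ending 357 bases before Ptgs2, is 7530420F21Rik, a synonym of the long noncoding RNA gene Ptgs2os in RefSeq. This transcript fell from 0.894 to 0.181 FPKM (log2 −2.30, SE 0.39, q = 2.71e-08), more than 99.6% of tested genes on that scale. Its low level tempers the value, which was −0.68 as log2(FPKM + 1). Pla2g4a and this transcript, on the same side of Ptgs2, were both lower with dexamethasone. Neighbours were searched only within 2000 bases of Ptgs2, and Pla2g4a was added because it is a member. Other genes of the region were not examined, so these falls describe neither the region nor the level of Ptgs2.

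**Figure D2:**
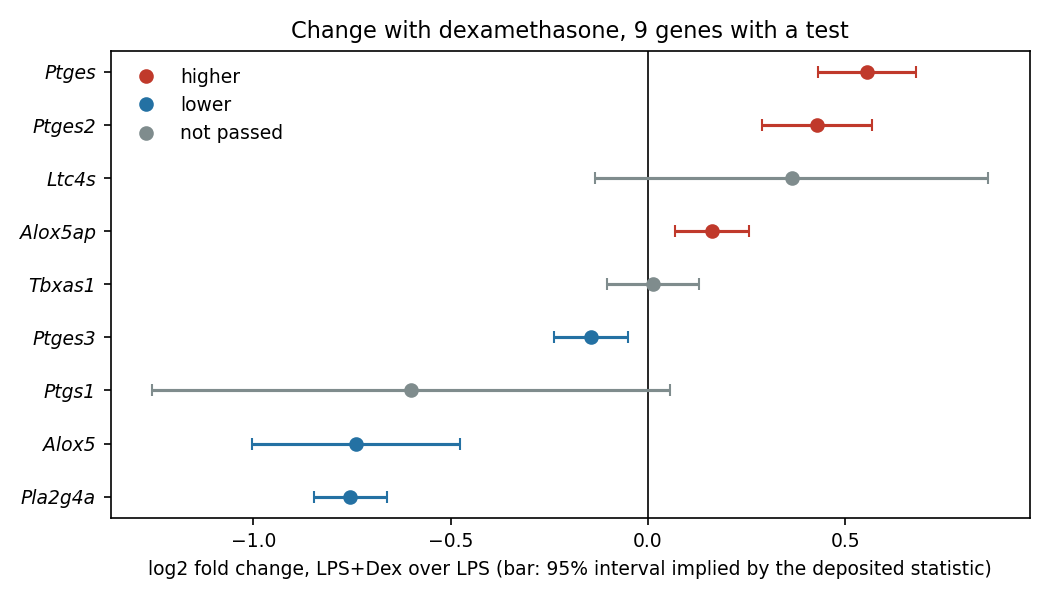
Log2 fold change of LPS+Dex over LPS for the 9 genes with a test, sorted by size; bars are 95% intervals implied by the deposited statistic, and colours give the call at q under 0.05. Ptges (0.55) and Ptges2 (0.43) lie to the right of 0, Pla2g4a (−0.75) and Alox5 (−0.74) to the left, and the intervals of Ptgs1 and Ltc4s are the widest.

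Of the 3 prostaglandin E synthase genes, Ptges and Ptges2 rose, with overlapping intervals, and Ptges3 fell slightly. Ptges, which encodes the inducible microsomal synthase that is usually coupled to the inducible cyclooxygenase, rose from 214 to 314 FPKM (log2 0.55, SE 0.064, interval 0.43 to 0.68). Its q is listed as 0, and the gene lies on chromosome 2, 30744990 to 30758817 (mm9). Ptges2, the gene of a second membrane-associated synthase, rose from 5.69 to 7.65 FPKM (log2 0.43, SE 0.071, q = 9.66e-09). Ptges3 encodes the cytosolic synthase, a protein better known as p23, a co-chaperone of Hsp90 in the steroid receptor complex. It fell by little, from 60.9 to 55.1 FPKM (log2 −0.14, SE 0.048, q = 0.00807), and with the trend of fold change on expression level removed the difference was −0.032 and not called (q = 0.662). RefSeq lists a pseudogene of Ptges3, and the sources used here do not state how reads shared with such copies were assigned.

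Taken as shares of the summed FPKM of these 3 synthases in the authors' deposited table, Ptges made up 76.3% with LPS and 83.3% with LPS and dexamethasone. The share of Ptges3 was 21.7% and 14.6%, and that of Ptges2 stood at 2.03% in each group. The summed level was 280.5 FPKM in LPS and 377 FPKM in LPS+Dex, and the ratio of Ptges to Pla2g4a in FPKM went from 3.13 to 7.75. These shares and ratios have no replicate error and are given as descriptions.

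Tbxas1 encodes thromboxane A synthase, the competing terminal enzyme that uses the same prostaglandin H2. It stood at 12.2 FPKM with LPS and 12.3 FPKM with LPS and dexamethasone in the authors' deposited table and was not called (log2 0.014, SE 0.060, q = 0.882). The interval of −0.10 to 0.13 is narrow enough that a change of the size seen for Ptges lies outside it. A second row, 1700025N23Rik, at 0.274 and 0.217 FPKM, overlaps the span of Tbxas1 on chromosome 6. It did not pass (q = 0.733), and since the sources do not state whether counting used strand, reads of overlapping genes cannot be told apart.

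In the leukotriene branch, the lipoxygenase gene and its partner moved apart. Alox5, which encodes 5-lipoxygenase and lies on chromosome 6, 116360088 to 116411196 (mm9), fell from 1.21 to 0.723 FPKM (log2 −0.74, SE 0.13, interval −1.0 to −0.48, q = 2.41e-07) in the authors' deposited table. On the log2(FPKM + 1) scale the fall was −0.36, since the gene is scarce. Alox5ap, whose product presents arachidonic acid to 5-lipoxygenase, rose by 11.9%, from 179.6 to 201 FPKM (log2 0.16, SE 0.048, q = 0.00245). Per length, Alox5ap exceeded Alox5 by a factor of 149 with LPS and 278 with LPS and dexamethasone. Ltc4s, the leukotriene C4 synthase gene, was at 1.48 and 1.90 FPKM and was not called (log2 0.36, SE 0.25, q = 0.257). Its interval, −0.13 to 0.86, includes both no change and a rise larger than that of Ptges.

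**Figure D3:**
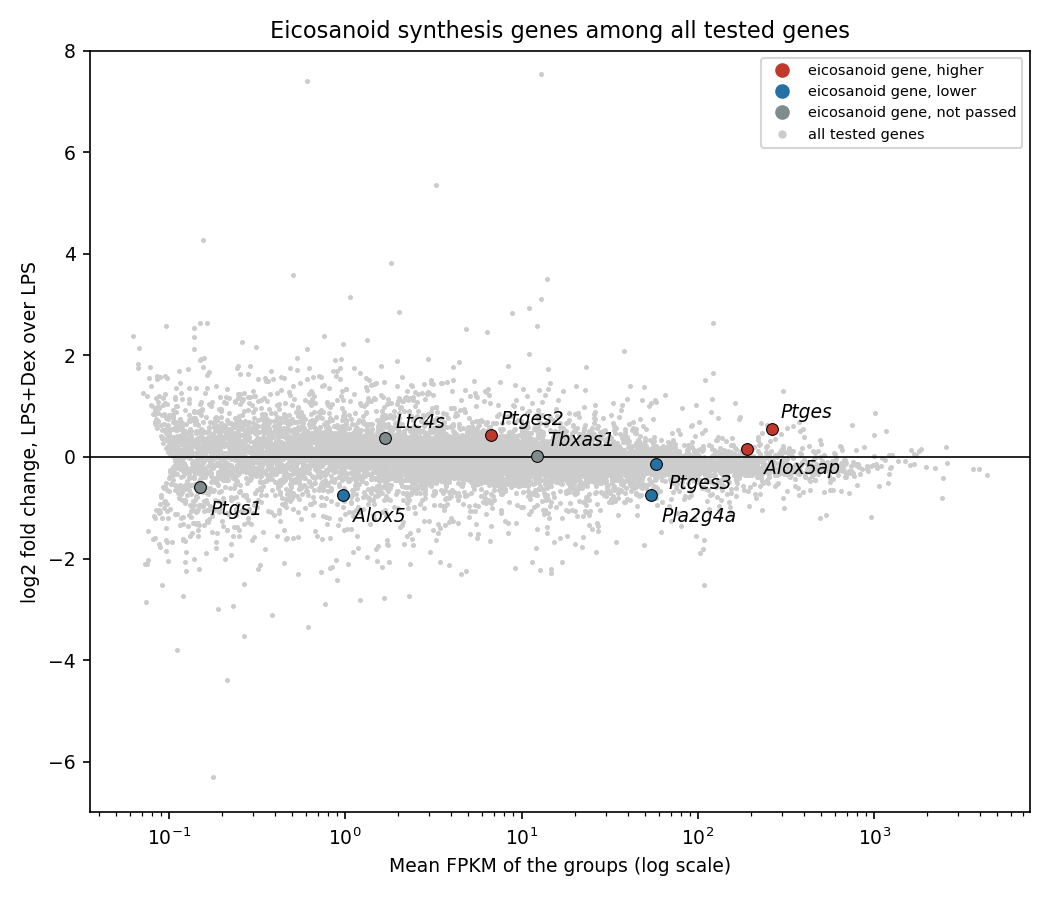
Log2 fold change of LPS+Dex over LPS against the mean FPKM of the groups (log axis) for all tested genes with values above 0 in each group (grey) and the 9 eicosanoid synthesis genes (coloured by call). Ptges and Alox5ap lie above 0 at levels where the fitted trend is below 0, and Ptgs1 and Alox5 lie where the spread of the grey points is wide.

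The abundance of a gene bears on how its change reads, because in the authors' deposited table the fitted trend of fold change on level was below 0 for abundant genes. At the level of Ptges the fitted trend was −0.17, and relative to it Ptges changed by 0.73. For Alox5ap the trend was −0.16 and the remaining change 0.33. Relative to genes of its level, Pla2g4a changed by −0.65 and Alox5 by −0.84, and both were called, as was Ptges2 at 0.43.

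Promoter sequences are shown for Ptges and Pla2g4a, the genes with the strongest rise and fall among the abundant members. They are the 250 bases before each transcription start in RefSeq, build GRCm38.p6, each on the minus strand, with matches to the 6-base half-site of the glucocorticoid receptor, AGAACA on either strand, in capitals. Pla2g4a has 2 listed starts.
Ptges, chr2:30903298-30903547: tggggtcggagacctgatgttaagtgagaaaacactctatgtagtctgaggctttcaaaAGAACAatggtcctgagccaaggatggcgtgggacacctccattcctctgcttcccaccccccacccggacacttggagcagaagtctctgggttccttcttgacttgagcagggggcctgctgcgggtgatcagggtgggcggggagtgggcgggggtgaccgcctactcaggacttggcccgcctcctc
Pla2g4a first start, chr1:149961291-149961540: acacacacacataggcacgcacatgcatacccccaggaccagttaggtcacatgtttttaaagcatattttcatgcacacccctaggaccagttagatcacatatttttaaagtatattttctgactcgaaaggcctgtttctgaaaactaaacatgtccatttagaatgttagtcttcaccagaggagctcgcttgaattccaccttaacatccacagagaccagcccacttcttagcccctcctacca
Pla2g4a second start, chr1:149922440-149922689: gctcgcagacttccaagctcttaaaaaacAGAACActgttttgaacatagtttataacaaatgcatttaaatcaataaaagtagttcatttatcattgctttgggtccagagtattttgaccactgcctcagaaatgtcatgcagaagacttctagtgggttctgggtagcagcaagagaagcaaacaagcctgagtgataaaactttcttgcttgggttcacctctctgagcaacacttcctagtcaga

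The half-site began 191 bases before the start of Ptges and 221 bases before the second start of Pla2g4a. Both the gene that rose and the gene that fell thus hold these letters, the latter at its second listed start only. A value per gene does not show which start of Pla2g4a these cells used. In the whole 300-base windows, which run on to 50 bases past the start, 3 of the 9 members with a listed promoter held the half-site, the other being Ptgs1, whose level did not pass. Of all 32851 listed promoters, counted singly, 19.0% held it, whereas a member was counted when any of its listed promoters matched. The cyclic AMP half-element TGACG, on either strand, occurred in the windows of Ptgs2 and Ptges3, in each case after the start, and in 20.8% of all promoters. The AP-1 site TGANTCA occurred in the window of Tbxas1 and in 7.81% of all promoters. The kB consensus had no match in these windows and one in 4.51% of all promoters. A match of letters is a description and no evidence of binding.

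Other genes of the pathway were followed in 6 lists by role, 75 genes in all. The authors' deposited table tested 47 of them, with 14 higher, 15 lower and 18 not passing, beside the 42.9% of all tested genes that were called, 17.7% as higher and 25.2% as lower. Their median log2 fold change was −0.090. The 28 without a test were all at or under 0.0739 FPKM.

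**Figure D4:**
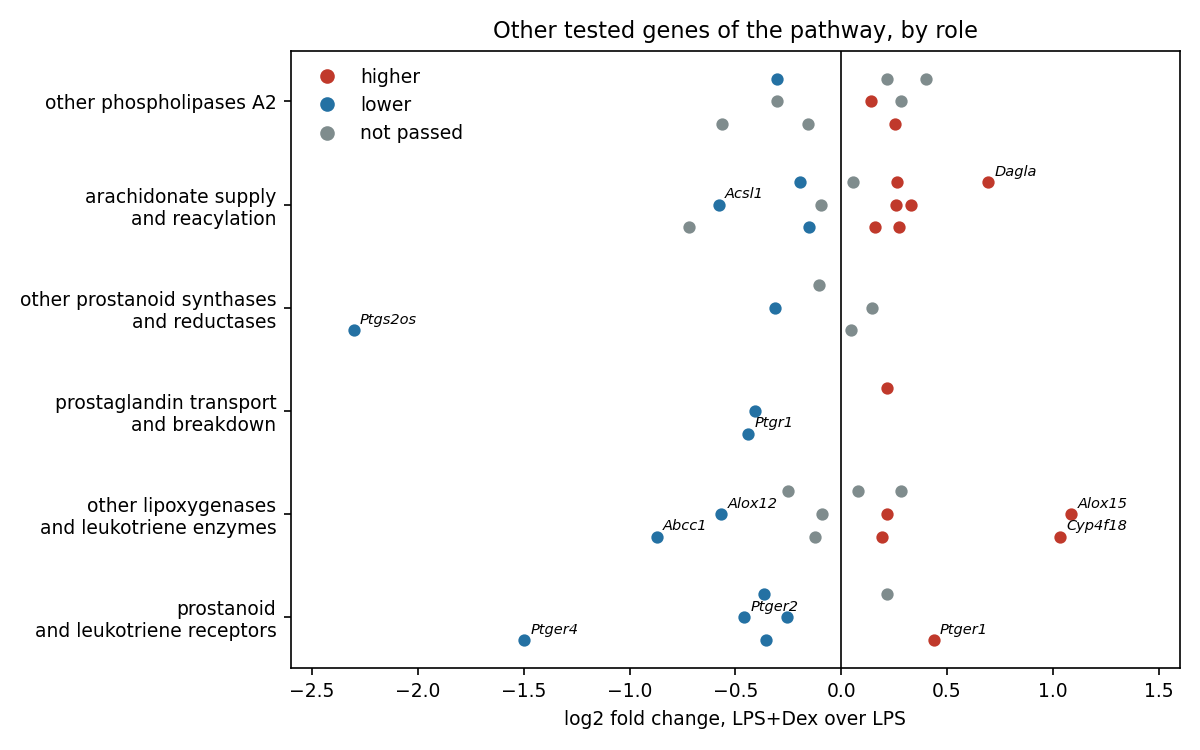
Log2 fold change of LPS+Dex over LPS for the 47 tested genes of the 6 pathway lists, 1 point per gene, coloured by call at q under 0.05; vertical offsets within a list only separate points. Of the 7 tested receptors 5 were called lower, beside 25.2% of all tested genes, with Ptger4 at −1.50. Called genes of arachidonate supply lie on either side.

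Of the 14 listed receptors for prostanoids and leukotrienes, 7 had a test in the authors' deposited table and 7 did not. Of the tested ones 5 were called lower, beside 25.2% of all tested genes, 1 was called higher and 1 was not called, with a median of −0.36. Ptger4, the gene of the prostaglandin E2 receptor EP4 that raises cyclic AMP, fell from 4.94 to 1.75 FPKM (log2 −1.50, SE 0.12). Ptger2, which encodes the other receptor of that kind, EP2, fell from 0.528 to 0.384 FPKM (log2 −0.46, or −0.14 as log2(FPKM + 1)). Ptgir, the prostacyclin receptor gene, fell from 9.14 to 7.66 FPKM (log2 −0.26). The cysteinyl leukotriene receptor genes Cysltr1 and Cysltr2 fell from 8.52 to 6.65 FPKM and from 2.91 to 2.26 FPKM, by −0.36 and −0.37 on the log2 scale. Ptger1, encoding the receptor EP1, rose from 4.23 to 5.73 FPKM (log2 0.44, SE 0.15, q = 0.0111). Ltb4r1, a leukotriene B4 receptor gene, did not pass at 0.104 and 0.121 FPKM (q = 0.799).

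Enzymes and carriers that remove or export prostaglandins gave 2 falls and 1 rise among 3 tested genes of the authors' deposited table. Of all tested genes 25.2% were called lower and 17.7% higher. Ptgr1, whose product inactivates leukotriene B4 and reduces 15-oxo-prostaglandins, fell from 23.4 to 17.2 FPKM (log2 −0.44, SE 0.053). Abcc4, which encodes an exporter of prostaglandins, fell from 5.21 to 3.93 FPKM (log2 −0.41, SE 0.061). The related reductase gene Ptgr2 rose from 3.17 to 3.69 FPKM and passed narrowly (log2 0.22, q = 0.0460); taking out that trend on expression level ended the call (q = 0.0901). Hpgd, encoding the main prostaglandin-degrading dehydrogenase, was too low for a test, at 0.045 and 0.031 FPKM.

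Among the other prostanoid synthases and reductases, 2 of 5 tested genes fell and none rose in the authors' deposited table, where 3 did not pass. That stands beside 25.2% of all tested genes called lower and 17.7% called higher. At an unadjusted p under 0.05 the count in this list was also 2. One of the falls is Ptgs2os, which is no synthase. Hpgds, the gene of the hematopoietic prostaglandin D synthase, fell from 13.1 to 10.5 FPKM (log2 −0.31, SE 0.054, q = 3.17e-08). Akr1b3, which encodes an aldo-keto reductase with prostaglandin F synthase activity, was the highest of those that did not pass, at 17.5 and 18.0 FPKM (q = 0.805).

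The list of other lipoxygenases and leukotriene enzymes held 11 tested genes in the authors' deposited table, of which 4 were higher, 2 lower and 5 did not pass. Of all tested genes 17.7% were called higher and 25.2% lower. Abcc1, encoding the exporter of leukotriene C4, fell from 29.7 to 16.2 FPKM (log2 −0.87, SE 0.048). Cotl1, whose product binds 5-lipoxygenase, rose from 110.0 to 128 FPKM (log2 0.22). Dpep2, a dipeptidase gene whose product converts leukotriene D4 to E4, rose from 86.7 to 99.0 FPKM (log2 0.19). Mgst3, a microsomal glutathione transferase gene, was the most abundant that did not pass, at 45.6 and 48.2 FPKM (q = 0.293); relative to the trend on expression level it was called higher (0.18).

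Lipoxygenases of other specificity were scarce. Alox15, which encodes the 12/15-lipoxygenase, rose from 0.113 to 0.240 FPKM (log2 1.09, SE 0.36, q = 0.00749), while Alox12, the platelet-type 12-lipoxygenase gene, fell from 0.407 to 0.275 FPKM (log2 −0.57, SE 0.22, q = 0.0236), both in the authors' deposited table. As log2(FPKM + 1) these changes were 0.16 and −0.14. Cyp4f18, encoding a leukotriene B4 hydroxylase, rose from 0.111 to 0.226 FPKM (log2 1.03, 0.14 as log2(FPKM + 1)). Its q of 0.0462 was narrow, and the call was lost with the trend removed (q = 0.0944).

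Other phospholipases A2 were mostly scarce, and 3 of 9 tested passed in the authors' deposited table, 2 as higher and 1 as lower. Over all tested genes 42.9% passed, 17.7% as higher and 25.2% as lower. The most abundant, Pla2g7, encodes a secreted enzyme that inactivates platelet-activating factor and rose from 134 to 148 FPKM (log2 0.14, SE 0.050, q = 0.0116). The lysosomal enzyme gene Pla2g15 rose from 6.88 to 8.20 FPKM (log2 0.25). Pla2g16 fell from 23.0 to 18.7 FPKM (log2 −0.30, SE 0.049). Pla2g12a, the highest of those that did not pass, was at 2.28 and 2.65 FPKM (q = 0.123).

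Genes listed for the supply of arachidonate and its return to phospholipids were called in 9 of 12 tests of the authors' deposited table, beside 42.9% of all tested genes. The list was drawn by role, without a measure of how far each enzyme handles arachidonate. Higher were 6, beside 17.7% of all tested genes, and lower were 3, beside 25.2%. Acsl1, a long-chain acyl-CoA synthetase gene, fell from 269 to 180.1 FPKM (log2 −0.58, SE 0.058). Its relatives rose, Acsl4, which prefers arachidonate, from 48.2 to 53.8 FPKM (log2 0.16) and Acsl3 from 3.54 to 4.23 FPKM (log2 0.26). Among the acyltransferases, Mboat7, which returns arachidonate to phosphatidylinositol, rose from 8.76 to 10.5 FPKM (log2 0.27), and Lpcat1 rose from 5.50 to 6.91 FPKM (log2 0.33). Lpcat2 fell from 9.29 to 8.12 FPKM (log2 −0.19). Lpcat3 fell from 29.7 to 26.7 FPKM (log2 −0.15, q = 0.0205), a call lost after centring on the median gene (q = 0.0592) and with the trend removed (q = 0.253). The diacylglycerol lipase genes Dagla and Daglb rose from 0.218 to 0.354 FPKM and from 1.83 to 2.22 FPKM (log2 0.70 and 0.27, the first 0.15 as log2(FPKM + 1)). Abhd12, a lipase gene, was not called at 59.9 and 62.2 FPKM (q = 0.394), although relative to genes of its level it passed as higher (0.17).

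Markers of the cell type and of other cells that make eicosanoids were checked in the authors' deposited table, since in bulk RNA fewer cells of a type and less RNA per cell cannot be told apart. Tested macrophage markers numbered 8, of which 4 rose, 1 fell and the other 3 missed the threshold. Their list had summed levels of 3430 and 3697 FPKM, of which Cd14, not called by the deposited q, held 1753 and 1948 FPKM. These counts and those below stand beside 17.7% of all tested genes called higher and 25.2% called lower. Lyz2 and Mpeg1 are HIDATA rows at 0, which is not a measurement, so the macrophage sum lacks them. With the trend on level taken out, the fall of Emr1 was not called (−0.052, q = 0.589) and Cd14 was called higher (0.38, q = 4.6e-05). Neutrophils are rich in Alox5, and of 5 tested neutrophil markers 4 fell and 1 rose. Ltf fell from 0.448 to 0.144 FPKM and Ngp from 3.11 to 2.09 FPKM, S100a8 rose from 27.5 to 40.9 FPKM, and Elane and Mpo were at or under 0.0955 FPKM. The summed level of that list, in which S100a8 and S100a9 weigh most, was 57.1 FPKM in LPS and 63.2 FPKM in LPS+Dex. Eosinophil markers, of a cell type that expresses Alox15 and Ltc4s, summed to 1.63 and 0.905 FPKM, with 2 of 3 tested lower. The third, Siglecf (listed as Siglec5), did not pass at 0.234 and 0.314 FPKM, and all 4 markers were under 1 FPKM. Of 9 mast cell and basophil markers 8 were at or under 0.031 FPKM, with Fcer1a, Mcpt4 and Tpsb2 at 0 in both groups. Of 7 platelet and megakaryocyte markers, Pf4 stood at 64.5 and 72.2 FPKM, while Ppbp was at 0.154 and 0.118 FPKM and the other 5 at or under 0.0688 FPKM. Dendritic cell markers summed to 3.25 and 0.764 FPKM, most of it Ccr7 (2.63 and 0.589 FPKM). The 2 tested, Ccr7 and Xcr1 (0.529 and 0.114 FPKM), were both lower, and the untested ones were at or under 0.0672 FPKM. Stromal markers summed to 0.437 and 0.737 FPKM with 1 tested and higher (Dcn, not called with the trend taken out, q = 0.0520). B and T cell markers summed to 0.518 and 0.379 FPKM with 1 tested and lower. The part of these cells in the changes of Alox5, Alox12, Alox15 and the receptor genes was not tested.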

How the data were processed

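RNA of 6 samples was sequenced as stranded paired-end libraries, per the labels' protocols; groups of 3 were taken from the sample titles. The authors deposited 1 table with an FPKM value per gene and group, a log2 fold change, a test statistic, a p-value and a q-value. The submitters' processing notes name CASAVA, TopHat 1.4.1, Cufflinks 2.0.2 and build mm9, without roles. The sources used here do not state the annotation, the scaling between groups or how samples were combined. FPKM depends on the assumed transcript length and library total.

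Log2 fold changes were recomputed as LPS+Dex over LPS. The deposited q matched a Benjamini-Hochberg adjustment over the 11755 tested genes to within 1e-06. The implied SE is the absolute fold change divided by the absolute statistic, which has the opposite sign. Calls used q under 0.05. No pseudocount or filter was added to the main values. A lowess trend (span 0.3, statsmodels 0.14.6) of fold change on level served as an alternative. Whether part of that trend is real change with dexamethasone, which its removal would take out, was not tested. Older symbols and RefSeq synonyms matched all 75 pathway genes; Ly6g was not matched and is not analysed here.

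Named were all members, the called genes of each list and the highest uncalled one. Genes, lists and tests were chosen with earlier results of these data known.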

Additional observations from a re-analysis of the deposited data

How the results depend on the processing

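Of the 10 genes, 9 could be tested under the alternatives and 6 were called. The count stayed at 6 with a q of 0.01 or 0.1, with adjustment over genes of at least 1 FPKM, with a minimum of 1 FPKM and with centring on the median gene. It was 5 with a minimum of 5 FPKM (without Alox5) or the trend removed (without Ptges3), and 4 with Bonferroni adjustment. At 1.5-fold it was 2. At 2-fold it was 0 by the deposited Cufflinks q and also 0 by the unadjusted p, since no tested member changed that much; with no fold minimum 6 had an unadjusted p under 0.05. The 29 called pathway genes became 10 with Bonferroni adjustment (1 higher, 9 lower), 18 at 5 FPKM or more, 6 at 1.5-fold and 4 at 2-fold. Over all genes listed, 5045 calls became 2424, 3303, 1237 and 524 under these settings. The 2424 with Bonferroni adjustment were 884 higher and 1540 lower, so falls also outnumbered rises over the whole table. No direction of a called member reversed under centring, trend removal or a pseudocount of 1 or 0.1; on the log2(FPKM + 1) scale Ptgs1 and Alox5 moved by more than their SE. No paired analysis was possible because the table holds 1 value per group, and leaving out a replicate was not run for the same reason. Unknown depth limits what can be said of genes under 1 FPKM, Ptgs1 above all.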

Other observations

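Hdc, which encodes histidine decarboxylase, the enzyme that makes histamine, stood apart from the other 8 mast cell and basophil markers of the authors' deposited table. It fell from 50.8 to 28.6 FPKM (log2 −0.83, SE 0.048, with the q listed as 0), while the others were at or under 0.031 FPKM in each group. It was singled out after its values were seen. Its fall was of a size near that of Pla2g4a (−0.75) and Abcc1 (−0.87).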
